A study of Mus musculus with 96 samples.

Results

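Glucose uptake and the regulated steps of glycolysis are described here through 9 genes of the 56748 in the count table, each found by its symbol: the glucose transporters Slc2a1, Slc2a2 and Slc2a4, the hexokinases Hk1 and Hk2, the glucokinase regulatory protein Gckr, the bifunctional enzymes Pfkfb1 and Pfkfb3, and the liver and red cell pyruvate kinase Pklr. Glucose enters cells through facilitative transporters and is trapped as glucose 6-phosphate by hexokinases, or in hepatocytes by glucokinase, which Gckr holds in the nucleus when fructose 6-phosphate is plentiful. The bifunctional enzymes make and remove fructose 2,6-bisphosphate, the strongest allosteric activator of phosphofructokinase, and pyruvate kinase closes the pathway. Liver both uses and makes glucose, muscle takes it up under insulin through the transporter encoded by Slc2a4, and brain takes it up steadily through the transporter encoded by Slc2a1.

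Liver, skeletal muscle and cerebral cortex were sequenced from mice with food at all times (ad libitum, AL) and from mice on intermittent fasting (IF). Mice 1 to 16 are labelled male, 8 on AL and 8 on IF, and mice 25 to 40 are labelled female, 8 on AL and 8 on IF. The study describes its males as C57BL/6 mice on one standard diet, put on AL or on IF at 6 weeks of age. IF was 16 h without food daily, from 16 to 8 o'clock, and lights were on for 12 h from 7 o'clock. After 4 months the mice were killed between 7 and 12 o'clock and then perfused with saline. The study calls this the end of the fast, but much of it falls after 8 o'clock, and feeding before death is not stated. No strain, age, hours of fasting, duration or time of death is given for the females. Sex, mouse set and sampling time therefore cannot be told apart in any comparison between the sets. In the males, diet over months, the hours since the last meal and the time of day of feeding cannot be told apart either. By that schedule IF males could eat only in the light, and AL males at any hour.

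Libraries were made from polyadenylated RNA and counted per gene. CPM are counts scaled to a common library sum, and levels of different members are compared only as CPM per kilobase of gene length. The most abundant marker of a list is the one with the highest plain CPM, without regard to length. The summed counts of the 95 libraries used ran from 26097314 to 49838004 with a median of 36132954, so 3 counts, taken as the floor, correspond to about 0.1 CPM. Floors cover counting error only.

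The tissues carried their own markers. Summed over 5 hepatocyte markers the liver libraries of AL mice 1 to 16 had a median of 48390 CPM, against 0.380 in muscle and 1.26 in cortex. Summed over 4 muscle fibre markers the muscle libraries of the same group had a median of 86300 CPM, and 5 neuronal markers summed to a median of 6093 CPM in cortex. Xist lay at 0.612 CPM or less in all male libraries used and at 36.8 CPM or more in all female ones.

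The cortex library of AL mouse 1 went against its label. It held 213 CPM of Xist and 0 counts of Ddx3y, while Ddx3y in the other 15 cortex libraries of mice 1 to 16 lay between 25.1 and 37.3 CPM. Among the other cortex libraries, the 5 most like it were all of mice 25 to 40: IF mice 40, 39, 38 and 35 and AL mouse 28. It was left out, so the AL group of cortex in mice 1 to 16 has n = 7, and the diet effects on the members in cortex are also given with it, here or in the closing section, while the gene lists were read only without it.

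Most members were highest in 1 tissue. Among the members, per kilobase, the highest mean level in muscle of AL mice 1 to 16 was that of Slc2a4 at 182 ± 11.7 CPM per kilobase (SD, n = 8), followed by Hk2 at 30.02 ± 2.25, Pfkfb3 at 24.0 ± 10.6 and Pfkfb1 at 8.67 ± 1.14. Hk2 and Pfkfb3 differed by less than the spread of Pfkfb3. In liver of the same mice Gckr stood at 140 ± 21.2 CPM per kilobase, Slc2a2 at 30.3 ± 8.20, Pklr at 13.1 ± 7.45 and Pfkfb1 at 11.2 ± 1.79, the last pair within their spread. In cortex Hk1 led with 47.8 ± 4.09 CPM per kilobase (SD, n = 7), ahead of Slc2a1 at 26.3 ± 2.60 and Pfkfb3 at 3.71 ± 1.24.

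Across tissues the order was the same in all 4 groups of mice for the tissue that came first, apart from Pfkfb1. Slc2a1 and Hk1 were highest in cortex, Slc2a4, Hk2 and Pfkfb3 in muscle, and Slc2a2, Gckr and Pklr in liver, each with no overlap between the libraries of the first tissue and those of the next. Pfkfb1 was shared by liver and muscle: its liver and muscle libraries overlapped in every group, with means of 44.8 and 34.8 CPM in AL mice 1 to 16 and of 37.99 and 57.8 CPM in IF mice 1 to 16. Pklr had 0 counts in all 32 muscle libraries, and Slc2a2 had 0 counts in the 16 muscle libraries of AL mice and at most 0.0784 CPM in those of IF mice. A count of 0 allows up to 0.103 CPM in the shallowest muscle library of AL mice 1 to 16.

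Diet effects were tested gene by gene over all genes that passed a filter on low counts, and a gene is called when its edgeR p, adjusted over all genes tested, is under 0.05. All 9 members passed in liver and 6 in muscle and in cortex, where Slc2a2, Gckr and Pklr did not. In liver of mice 1 to 16, 2 members were higher in IF, where 23.5% of all genes were, and 3 were lower, where 21.1% of all genes were. In muscle of mice 1 to 16, 2 members were higher against a background of 11.5% and 1 was lower against 11.6%. Without scaling, 2549 of all 15025 genes were higher there and 1073 lower, with the same member counts. In cortex of mice 1 to 16, 1 member was higher against 3.79% of all genes, and no member was lower, where 3.43% of genes were. With 9 members or fewer, and genome-wide shares this large in liver, the counts are not read as particular to these genes.

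Mice 25 to 40 gave no called member in any tissue. edgeR called 0 of 9 members in liver, where it called 0% of all genes, 0 of 6 in muscle, where it called 0.00653%, and 0 of 6 in cortex, where it called 0.0109%. These shares can hang on 1 library: in cortex of mice 25 to 40 the genes called went from 2 to 254 without AL mouse 26, and in cortex of mice 1 to 16 they ran from 638 to 2059 around 1332 with each library left out in turn. At an unadjusted p under 0.05 the members numbered 2 in liver, 0 in muscle and 1 in cortex, where all genes numbered 919 of 15938, 1644 of 15308 and 2069 of 18403. DESeq2 called 0 members in each tissue. Of all genes, DESeq2 called 6 in liver, 91 in muscle and 73 in cortex.

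**Figure D1:**
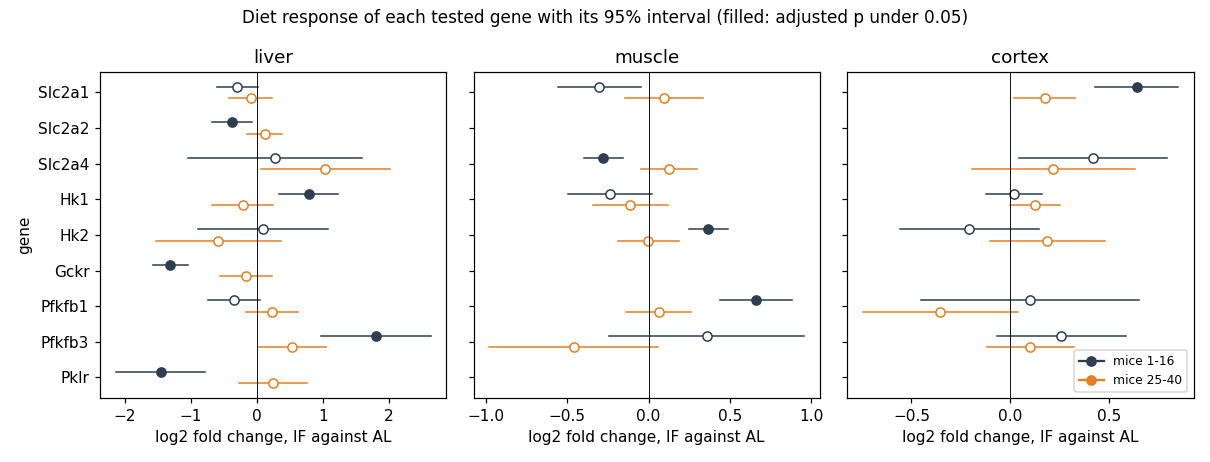
Log2 fold change of IF against AL for each member that passed the filter, by tissue, with 95% confidence intervals; mice 1 to 16 are dark and mice 25 to 40 orange, and a filled point has an adjusted p under 0.05. Gckr at -1.30, Pklr at -1.46 and Pfkfb3 at 1.80 in liver of mice 1 to 16 lie farthest from 0 among the filled points.

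Slc2a1 encodes GLUT1, the transporter of brain capillaries and astrocytes. Its lowest, median and highest levels in cortex of mice 1 to 16 were 82.8, 89.5 and 108 CPM on AL and 107, 148 and 173 CPM on IF. The groups met at their edge: 7 of 8 IF libraries lay above all AL libraries, and IF mouse 9 lay just under AL mouse 7. IF was higher, with a log2 fold change of 0.64 ± 0.10 (SE; 95% interval 0.43 to 0.85), with an adjusted p of 0.00193. With the library of AL mouse 1 put back it was 0.54, with an adjusted p of 0.0312, and adjusted p ran from 1.82e-07 to 0.0312 over 9 alternative settings.

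Cortex levels of Slc2a1 in mice 25 to 40 ran from 97.0 through 108 to 129 CPM on AL and from 111 through 120 to 141 CPM on IF. The groups overlapped, with 3 of 8 IF libraries above all AL libraries. Slc2a1 had a log2 fold change of 0.17 there (95% interval 0.02 to 0.33), with an adjusted p of 0.413. In liver and muscle Slc2a1 lay between 5.19 and 20.6 CPM in every library and was called in neither tissue in either mouse set. Without AL mouse 2 and IF mouse 10 it was called in muscle of mice 1 to 16, at -0.38 with an adjusted p of 0.0401, against -0.30 and 0.0813 with all libraries, and adjusted p ran from 0.0401 to 0.186 over 8 alternatives.

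Cell type markers moved in the same cortex libraries, where 3.79% of all genes were higher and 3.43% lower. Of 4 endothelial markers, 1 was called in mice 1 to 16, Cldn5, a tight junction gene of brain capillaries, which fell by 0.43 on the log2 scale. The 4 endothelial markers together summed to between 170 and 213 CPM on AL with a median of 190, and to between 146 and 182 CPM on IF with a median of 155, and Cldn5 was the most abundant in both. Of 5 astrocyte markers 1 was lower, Aqp4 at -0.51, with sums of 548, 671 and 786 CPM (lowest, median, highest) on AL and 531, 610 and 650 CPM on IF and Slc1a3 the most abundant. Of 3 oligodendrocyte markers Mbp at 0.59 and Mog at 0.53 were higher, with sums of 3523, 4296 and 5514 CPM on AL and 4751, 6306 and 7892 CPM on IF and Mbp the most abundant. None of these markers was at 0, and their part in the Slc2a1 result was not tested. Fewer cells of a type and less RNA per cell cannot be told apart in bulk tissue.

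Slc2a2 encodes GLUT2, the low-affinity transporter of hepatocytes and beta cells. In mice 1 to 16 its liver level ran from 106 through 183 to 244 CPM on AL and from 113 through 132 to 183 CPM on IF. The IF libraries lay inside the AL range, none of them beyond it on either side. Its log2 fold change was -0.37 ± 0.15 (SE; 95% interval -0.68 to -0.07), with an adjusted p of 0.0442. Among the members called in liver there, Slc2a2 had the highest adjusted p. On plain library totals it was 0.113, and it reached 0.163 among 8 alternatives. Leaving out any 1 of 10 libraries also ended the call.

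The 10 libraries whose removal ended the call of Slc2a2 were those of AL mice 1, 2, 4, 5 and 6 and of IF mice 9, 12, 14, 15 and 16, with log2 fold changes between -0.48 and -0.31 over all 16 removals and a highest adjusted p of 0.1003. Slc2a2 in liver of mice 25 to 40 ran from 187 through 223 to 249 CPM on AL and from 166 through 232 to 303 CPM on IF. These groups overlapped around a shared centre, and the log2 fold change was 0.12 (95% interval -0.15 to 0.39), or 0.048 to 0.19 with each library left out in turn.

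Slc2a4 encodes GLUT4, the insulin-responsive transporter of muscle and fat. In muscle of mice 1 to 16 it ran from 573 through 638 to 691 CPM on AL and from 453 through 562 to 576 CPM on IF. Of 8 IF libraries 6 lay below all AL libraries, and IF mouse 11 stood apart at the low end. Slc2a4 fell, with a log2 fold change of -0.28 ± 0.06 (SE; 95% interval -0.40 to -0.16), with an adjusted p of 0.00147. Slc2a4 in muscle of mice 25 to 40 ran from 432 through 562 to 622 CPM on AL and from 533 through 570 to 610 CPM on IF.

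The IF libraries of mice 25 to 40 lay inside the AL range for Slc2a4, and the log2 fold change was 0.12 (95% interval -0.05 to 0.29), or 0.0701 to 0.16 with each library left out in turn. In cortex Slc2a4 lay between 0.998 and 3.06 CPM in every library. In liver Slc2a4 lay at or under 3.40 CPM, with 0 counts in IF mouse 10, so its liver changes rest on few counts. Its liver log2 fold change was 0.27 in mice 1 to 16 (adjusted p 0.757), not called. It was 1.04 in mice 25 to 40 (95% interval 0.07 to 2.01, adjusted p 0.850), also not called.

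Adipocyte markers rose in the same muscle libraries of mice 1 to 16, and adipocytes also express Slc2a4. Of all genes, 11.5% were higher there and 11.6% lower. Of 5 adipocyte markers 4 were called, all higher: Cidec at 2.52, Adipoq at 2.25, Plin1 at 2.20 and Fabp4 at 1.81 on the log2 scale. Their sum ran from 143 through 250 to 515 CPM on AL and from 332 through 976 to 2489 CPM on IF, Fabp4 was the most abundant, and none was at 0. The sum and Slc2a4 moved in opposite directions, and the part of these cells in the result was not tested. In mice 25 to 40 edgeR called 0 of the 5, with 0 at an unadjusted p under 0.05 and 0 by DESeq2. Of 4 muscle fibre markers Mb at -0.90 and Ckm at -0.19 were lower in mice 1 to 16, with sums of 81770, 86300 and 90340 CPM on AL and 74940, 80880 and 94010 CPM on IF and Acta1 the most abundant.

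Leukocyte and fibre type markers were read in the same muscle libraries, where 11.5% of all genes were higher and 11.6% lower. Of 5 leukocyte markers Lyz2 at -0.68 and Csf1r at -0.44 were lower, with sums of 37.4, 56.6 and 78.0 CPM on AL and 28.4, 40.03 and 56.5 CPM on IF and Lyz2 the most abundant. Of 4 fibre type markers edgeR called 0, with 2 at an unadjusted p under 0.05 and 2 by DESeq2, and a median log2 fold change of -0.69. Sums were 35900, 39750 and 43270 CPM on AL and 34810, 40400 and 44140 CPM on IF. Myh4, the most abundant, averaged 36370 of 39290 CPM on AL and 37820 of 39860 CPM on IF. The sums therefore say little about the other fibre type markers. None of the muscle fibre, leukocyte or fibre type markers was at 0, and their part in the muscle results was not tested.

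**Figure D2:**
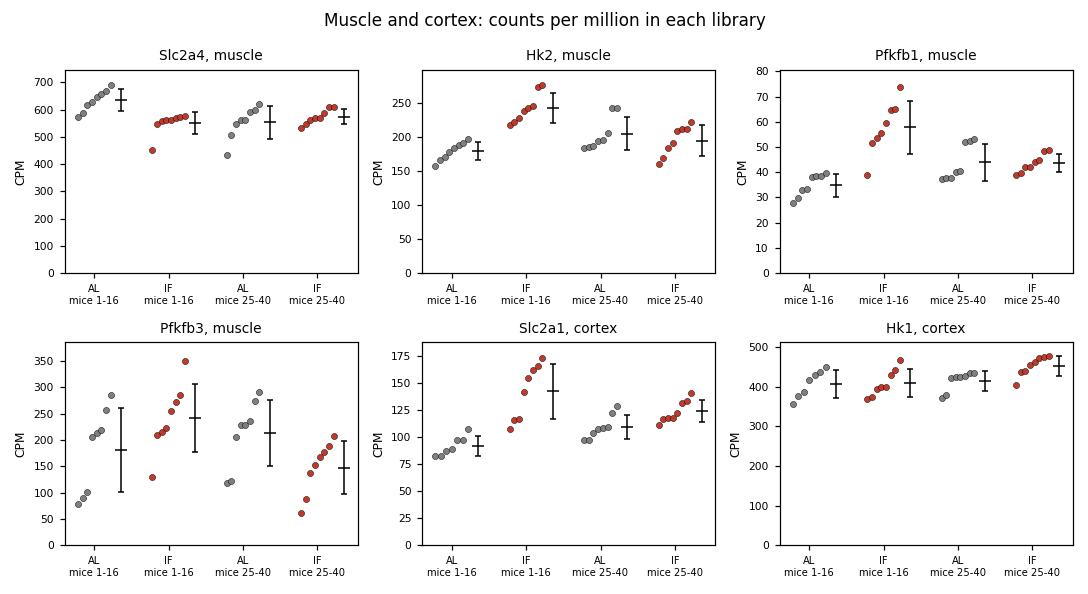
CPM of each library (points, ordered by value) and the mean with its SD (bar) for 4 members in muscle and 2 in cortex, AL in grey and IF in red. Hk2 in muscle of mice 1 to 16 separates, at 196 CPM or less on AL and 217 CPM or more on IF, and Slc2a1 in cortex meets at its edge.

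Hk1 encodes the hexokinase of brain and red cells. In cortex, where it is abundant, it ran from 357 through 417 to 451 CPM on AL and from 368 through 399 to 468 CPM on IF in mice 1 to 16. These ranges coincide almost wholly, with a log2 fold change of 0.02 (95% interval -0.12 to 0.16), and of -0.01 with the library of AL mouse 1 put back. In mice 25 to 40, 7 of 8 IF libraries lay above all AL libraries, which ended at 434 CPM, and the IF libraries reached 478 CPM. Its log2 fold change there was 0.12 (95% interval -0.00 to 0.25), with an adjusted p of 0.448, and it was not called.

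Hk1 was scarce in liver of mice 1 to 16, from 2.07 through 2.73 to 3.61 CPM on AL and from 3.38 through 3.85 to 10.4 CPM on IF. IF libraries lay higher, 7 of 8 above all AL libraries, and IF mouse 9 stood far above the rest. Hk1 rose, with a log2 fold change of 0.78 ± 0.21 (SE; 95% interval 0.34 to 1.22), with an adjusted p of 0.00436. With red cell marker level as a covariate the call ended, at 0.45 with an adjusted p of 0.283, over a range of 0.00222 to 0.283 in 8 alternatives. Without IF mouse 9 it was 0.54, with an adjusted p of 0.0202. In muscle Hk1 lay between 5.33 and 11.4 CPM and was called in neither mouse set.

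Hk2 encodes the insulin-responsive hexokinase of muscle. In muscle of mice 1 to 16 it ran from 158 through 181 to 196 CPM on AL and from 217 through 240 to 276 CPM on IF. The groups did not overlap. Hk2 rose, with a log2 fold change of 0.37 ± 0.06 (SE; 95% interval 0.25 to 0.49), with an adjusted p of 9.78e-05. Hk2 in muscle of mice 25 to 40 ran from 184 through 195 to 242 CPM on AL and from 161 through 200 to 222 CPM on IF.

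These later groups of Hk2 overlapped, and the log2 fold change was -0.00 (95% interval -0.19 to 0.19), with a sign that turned under some settings. In liver Hk2 lay at 3.92 CPM or less and in cortex at 3.54 CPM or less in every library, and it was called in neither.

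Gckr encodes the nuclear inhibitor of glucokinase in hepatocytes. Liver libraries of mice 1 to 16 ran from 497 through 588 to 781 CPM on AL and from 196 through 244 to 371 CPM on IF. The groups did not overlap, and all 8 IF libraries lay below all AL libraries. Gckr fell, with a log2 fold change of -1.30 ± 0.12 (SE; 95% interval -1.56 to -1.05), with an adjusted p of 1.11e-08. Over 8 alternative settings it stayed between -1.34 and -1.20.

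Gckr in liver of mice 25 to 40 ran from 396 through 506 to 1010 CPM on AL and from 323 through 489 to 645 CPM on IF. The groups overlapped, with AL mouse 26 far above the others and 2 of 8 IF libraries below all AL libraries. Gckr had a log2 fold change of -0.17 (95% interval -0.56 to 0.23), and it ran from -0.24 to -0.0031 with each library left out in turn, the latter without AL mouse 26. In muscle and cortex no library reached 0.6 CPM of Gckr.

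**Figure D3:**
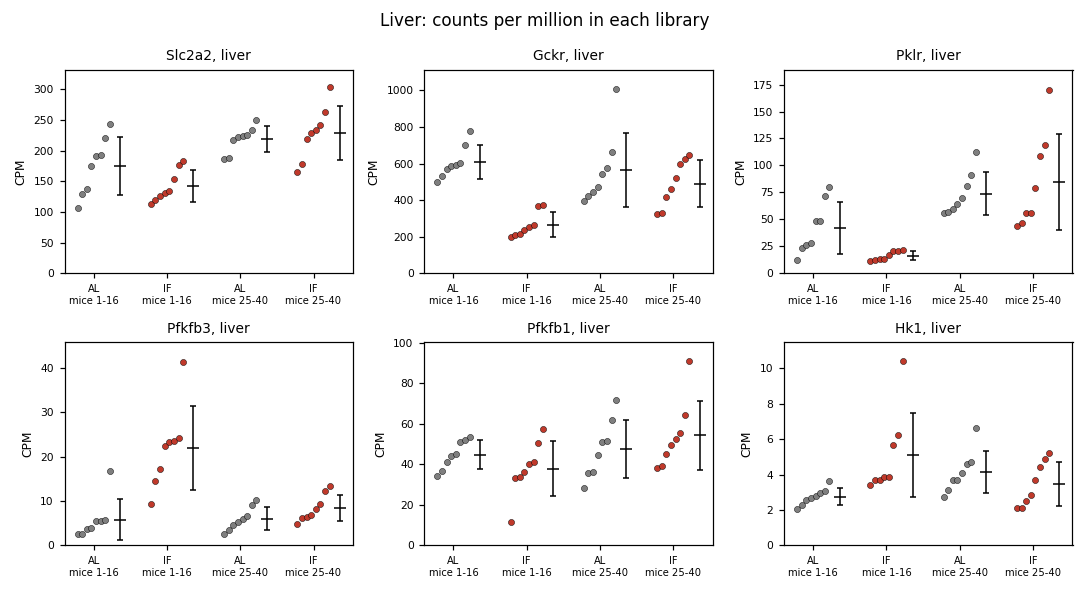
CPM of each liver library (points, ordered by value) and the mean with its SD (bar) for 6 members, AL in grey and IF in red, with both mouse sets side by side. Gckr separates in mice 1 to 16, at 497 CPM or more on AL and 371 CPM or less on IF, and overlaps in mice 25 to 40.

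Pfkfb1 encodes the bifunctional enzyme of liver and muscle. In muscle of mice 1 to 16 it ran from 27.6 through 35.8 to 39.8 CPM on AL and from 38.7 through 57.6 to 73.8 CPM on IF. IF libraries lay higher, 7 of 8 above all AL libraries, with IF mouse 9 inside the AL range and IF mouse 11, the lowest for Slc2a4, the highest here. Pfkfb1 rose, with a log2 fold change of 0.66 ± 0.11 (SE; 95% interval 0.44 to 0.88), with an adjusted p of 0.000179. Pfkfb1 in muscle of mice 25 to 40 ran from 37.4 through 40.3 to 53.2 CPM on AL and from 39.03 through 43.2 to 48.9 CPM on IF.

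The IF libraries of mice 25 to 40 lay inside the AL range for Pfkfb1 in muscle, and the log2 fold change was 0.06 (95% interval -0.14 to 0.26), or 0.0227 to 0.11 with each library left out in turn. In liver of mice 1 to 16 Pfkfb1 ran from 34.2 through 44.8 to 53.5 CPM on AL and from 11.6 through 38.2 to 57.3 CPM on IF. The groups overlapped, with 3 of 8 IF libraries below all AL libraries, IF mouse 10 far below, and 1, IF mouse 13, above them. Pfkfb1 had a log2 fold change of -0.35 (95% interval -0.74 to 0.04), with an adjusted p of 0.138. Without IF mouse 13 it was -0.48, with an adjusted p of 0.0381, and Slc2a1 was called too, at -0.41.

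Pfkfb3 encodes the inducible enzyme, whose kinase activity far exceeds its phosphatase activity. Liver libraries of mice 1 to 16 ran from 2.57 through 4.80 to 16.9 CPM on AL and from 9.41 through 22.8 to 41.3 CPM on IF. Of 8 IF libraries 6 lay above all AL libraries, AL mouse 3 stood alone at the top of its group, and IF mouse 11 stood at the top of the other. Pfkfb3 rose, with a log2 fold change of 1.80 ± 0.39 (SE; 95% interval 0.97 to 2.63), with an adjusted p of 0.00143. It was 2.27 without AL mouse 3 and 1.53 without IF mouse 11.

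Pfkfb3 in liver of mice 25 to 40 ran from 2.64 through 5.63 to 10.2 CPM on AL and from 4.91 through 7.56 to 13.3 CPM on IF. The groups overlapped, with 2 of 8 IF libraries above all AL libraries. Pfkfb3 had a log2 fold change of 0.53 (95% interval 0.02 to 1.04), with an adjusted p of 0.850.

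In muscle, where Pfkfb3 is most abundant, AL mice 1 to 16 split into 3 libraries at 101 CPM or less, those of mice 1, 2 and 3, and 5 at 205 CPM or more. IF mice of the same set ran from 130 through 239 to 350 CPM, around the upper AL libraries. The log2 fold change was 0.36 (95% interval -0.24 to 0.96), with an adjusted p of 0.397. In mice 25 to 40 the AL libraries ran from 119 through 228 to 291 CPM and the IF libraries from 62.2 through 160 to 208 CPM, with a log2 fold change of -0.46 (95% interval -0.98 to 0.06) that was not called. In cortex of mice 1 to 16 Pfkfb3 ran from 21.4 through 23.8 to 46.2 CPM on AL and from 27.5 through 33.5 to 39.2 CPM on IF.

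AL mouse 7 held the highest cortex value of Pfkfb3 in its set, above every IF library. The cortex log2 fold change was 0.26 (95% interval -0.07 to 0.59), with an adjusted p of 0.330. Without AL mouse 7 it was 0.42, with an adjusted p of 0.0255, and the cortex count of called members went from 1 to 2.

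Pklr encodes the pyruvate kinase of liver and red cells, a gene known to respond to carbohydrate intake in hepatocytes. Liver levels in mice 1 to 16 ran from 12.7 through 37.8 to 80.3 CPM on AL and from 11.2 through 15.1 to 21.7 CPM on IF. AL libraries were spread widely and IF libraries narrowly, with AL mouse 6 among the IF libraries and 2 of 8 IF libraries below all AL libraries. Pklr fell, with a log2 fold change of -1.46 ± 0.32 (SE; 95% interval -2.13 to -0.78), with an adjusted p of 0.00151. With red cell marker level as a covariate the call ended, at -1.10 with an adjusted p of 0.110, over a range of 2.44e-05 to 0.110 in 8 alternatives. Pklr in liver of mice 25 to 40 ran from 55.5 through 67.1 to 113 CPM on AL and from 43.8 through 67.7 to 170 CPM on IF.

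The IF libraries of mice 25 to 40 reached beyond the AL libraries of Pklr on both sides, and the log2 fold change was 0.24 (95% interval -0.27 to 0.76), or 0.015 to 0.34 with each library left out in turn. The lowest of these 16 libraries lay above the highest IF library of mice 1 to 16. In cortex Pklr lay at 0.192 CPM or less in every library.

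Red cell markers moved with diet in liver of mice 1 to 16, and Hk1 and Pklr are genes of red cells too. Of 5 erythrocyte markers 3 were called, all higher, where 23.5% of all genes were: Hbb-bs at 3.17, Hbb-bt at 2.67 and Hba-a1 at 1.70 on the log2 scale. Their sum ran from 362 through 569 to 956 CPM on AL and from 667 through 2070 to 6879 CPM on IF, Hba-a1 was the most abundant, and none was at 0. The mean log2 level of the 5 was higher by 1.65 on IF, with a two-sided exact permutation p of 0.00202 over 12870 splits. Alas2 alone was higher by 0.20, with an exact permutation p of 0.399.

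With that mean level as a covariate in liver of mice 1 to 16, the called members went from 5 to 2 of 9, Gckr and Pfkfb3, and all genes called from 7234 to 3995 of 16204, so the loss is not read as particular to the members. Hk1 and Pklr lost their calls, as given above, and Slc2a2 was at -0.42 with an adjusted p of 0.163, over a range of 0.0194 to 0.163 in 8 alternatives. Marker level and diet move together here, and how much of the diet difference the covariate takes up was not tested. In the other tissues and in mice 25 to 40 the exact permutation p of this level lay between 0.620 and 0.988.

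Other liver cell markers were read in mice 1 to 16, where 23.5% of all genes were higher and 21.1% lower. Of 5 hepatocyte markers 2 were lower, Apoa1 at -0.48 and Fgb at -0.33, with sums of 42220, 48390 and 71130 CPM (lowest, median, highest) on AL and 34860, 44490 and 55860 CPM on IF, and Alb the most abundant. Of 4 markers of sinusoidal, Kupffer and stellate cells 3 were higher, Dcn at 0.74, Stab2 at 0.73 and Clec4f at 0.41, with sums of 198, 210 and 290 CPM on AL and 270, 351 and 466 CPM on IF, and Clec4f the most abundant. Of 3 cholangiocyte markers Epcam at 1.88 and Krt19 at 1.14 were higher and Sox9 at -1.26 was lower, with sums of 6.05, 14.2 and 26.5 CPM on AL and 9.66, 16.1 and 33.8 CPM on IF, with Sox9 on AL and Krt19 on IF highest in plain CPM. None of these markers was at 0, and the part of these cells in the liver results was not tested.

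The responses of the 2 mouse sets were compared directly, as the log2 fold change in mice 25 to 40 minus that in mice 1 to 16. These differences were not fitted with the red cell covariate, under which Hk1 and Pklr lost their liver calls in mice 1 to 16. Nor was each library left out in turn in these fits. In liver 4 of 9 members differed, where 23.7% of all genes did. Pklr differed by 1.73 (95% interval 0.87 to 2.59, adjusted p 0.00298) and Gckr by 1.17 (95% interval 0.70 to 1.64, adjusted p 0.000237), where mice 25 to 40 had log2 fold changes of 0.24 and -0.17. Hk1 differed by -0.96 (adjusted p 0.0201) and Pfkfb3 by -1.24 (adjusted p 0.0494), the latter 0.0512 with the size factors of DESeq2 and between 0.0369 and 0.0512 over its 2 alternatives. Slc2a2 differed by 0.52 with an adjusted p of 0.0591, which was 0.0485 among genes with at least 10 counts in every library and 0.0625 under its other alternative.

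In muscle 3 of 6 members differed between the mouse sets, where 14.2% of all genes did. Slc2a4 differed by 0.42 (95% interval 0.21 to 0.62, adjusted p 0.00475), Hk2 by -0.35 (95% interval -0.57 to -0.13, adjusted p 0.0245) and Pfkfb1 by -0.58 (95% interval -0.88 to -0.28, adjusted p 0.00765). These are the 3 members called in muscle of mice 1 to 16. In cortex 1 of 6 differed, where 2.03% of all genes did: Slc2a1, by -0.46 (95% interval -0.71 to -0.21, adjusted p 0.0437). With the library of AL mouse 1 put back it differed by -0.36, with an adjusted p of 0.267, so that call rests on leaving the library out. The fit with it counts a library that holds Xist and no Ddx3y as a male. Adjusted p ran from 0.0384 to 0.267 over 3 alternatives.

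The responses of the tissues were compared within mice 1 to 16, with the mouse as a block, for the 6 members that passed the filter in both tissues. These differences too were not fitted with the red cell covariate or with each library left out in turn. Between liver and muscle 3 of 6 differed, where 31% of all genes did: relative to liver, the muscle response was lower by 1.47 for Pfkfb3 (-1.47, adjusted p 0.00401), lower for Hk1 (-0.94, adjusted p 0.000640) and higher for Pfkfb1 (1.09, adjusted p 0.000585). Between liver and cortex 3 of 6 differed, where 26.7% of all genes did: Slc2a1 at 0.89 (adjusted p 0.000195), Hk1 at -0.71 (adjusted p 0.00969) and Pfkfb3 at -1.44 (adjusted p 0.00667), as cortex minus liver. Gckr was called in that comparison too, but it is near 0 in cortex and is not counted.

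Between muscle and cortex 1 of 6 differed, where 3.80% of all genes did, Slc2a1 at 0.84 (95% interval 0.48 to 1.20, adjusted p 0.00471). With the library of AL mouse 1 put back it was 0.81, with an adjusted p of 0.00428, and between liver and cortex it was 0.86. In mice 25 to 40 edgeR called 0 of 6 between liver and muscle, where it called 0.00470% of all genes, 0 of 6 between liver and cortex, where it called 0%, and 0 of 6 between muscle and cortex, where it called 0.00470%. At an unadjusted p under 0.05, 2, 1 and 0 members stood in these comparisons, where all genes numbered 1647, 2037 and 1160 of 21292. DESeq2 was not run on them.

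The rest of the pathway was read from 5 lists of other genes, and counts near the share of all genes are no result about a list. In liver of mice 1 to 16 that share was 23.5% higher and 21.1% lower. There, 10 of 14 other glycolytic enzymes were higher and none was lower, with a median log2 fold change of 0.66 against 0.06 for all genes tested. Ldha at 1.87 and Ldhb at 1.20, the lactate dehydrogenase subunits, Pgk1 at 1.66 and Tpi1 at 0.91 were the largest. Of 11 other enzymes of the regulated steps 4 were higher, with a median of 0.14. They were the phosphofructokinase subunits Pfkl at 1.29 and Pfkp at 0.57, the hexokinase Hkdc1 at 1.23 and the pyruvate kinase Pkm at 0.84. For protein, the study reports PFKL as lower in IF liver of its males. The lists were not read with the red cell covariate.

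Among 6 other glucose transporters tested in liver of mice 1 to 16, Slc2a3 was higher at 1.35 and Slc2a9, a urate carrier, lower at -0.74, with a median of 0.04. Of 11 genes of GLUT4 vesicle trafficking 4 were higher and 3 lower, with a median of -0.02, the largest being Stx4a at -1.07, Sort1 at -0.86, Tbc1d1 at 0.77 and Vamp2 at 0.66. Of 10 transcription factors of glucose-responsive genes Ppara at 1.24 and Mef2a at 0.37 were higher, and Srebf1 at -1.05 and Mlx at -0.97 were lower, with a median of -0.00. Mlx is the partner of the carbohydrate response factor encoded by Mlxipl, which was not among the called genes in liver.

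In muscle of mice 1 to 16, 10 of 47 genes of these lists were called, 8 higher and 2 lower, where 11.5% of all genes were higher and 11.6% lower. Slc2a12 at 0.40 was higher and Slc2a10 at -0.89 lower among 6 other transporters, and Adpgk at 0.44 and Tigar, a fructose 2,6-bisphosphatase, at 0.29 were higher among 10 other enzymes of the regulated steps, with medians of -0.13 and 0.08 against 0.01 for all genes tested. Eno2 at 0.91 and Pgk1 at 0.39 were higher among 13 glycolytic enzymes, with a median of -0.02. Lnpep at 0.47, Tbc1d4 at 0.39 and Sort1 at 0.32, all of GLUT4 vesicles or their traffic, were higher among 11, with a median of 0.05, in the libraries where Slc2a4 itself was lower. Mlxipl at -0.20 was lower among 7 transcription factors, with a median of -0.12.

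In cortex of mice 1 to 16 edgeR called 1 of 50 genes of the 5 lists, Hkdc1 at 0.53, where 3.79% of all genes were higher and 3.43% lower, with 9 at an unadjusted p under 0.05 and 4 called by DESeq2. The medians lay between -0.02 and 0.11 over the 5 lists, against -0.00 for all genes tested. The mouse sets differed in liver for 13 of 53 genes of the lists, near the 23.7% of all genes that did, among them 4 of 14 glycolytic enzymes, with a median difference of -0.50 against -0.04 for all genes: Ldha at -2.04, Pgk1 at -1.65, Eno3 at -0.90 and Tpi1 at -0.73. In mice 25 to 40 edgeR called 0 of 52 in liver, 0 of 47 in muscle and 0 of 51 in cortex. At an unadjusted p under 0.05 there were 4, 15 and 4, against the counts of all genes given above, and 8 of the 15 in muscle were among 13 glycolytic enzymes, whose median was 0.20 against -0.02 for all genes. DESeq2 called 0 in each tissue.

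Clock genes were read after the values were seen, because the sets may have been killed at other hours. Within mice 1 to 16 the hours of feeding differed with diet too. In mice 1 to 16, 6 of 6 clock genes were called in liver, 4 of 6 in muscle and 3 of 6 in cortex. Of all genes, 7234 of 16204, 3465 of 15025 and 1332 of 18462 were called there. The largest clock gene changes were Per1 in liver at 4.53, Nr1d1 in muscle at -2.47 and Ciart in cortex at 0.95 on the log2 scale. In mice 25 to 40 edgeR called 0 of 6 in each tissue, with 0, 2 and 2 at an unadjusted p under 0.05 and 0, 0 and 1 by DESeq2, in liver, muscle and cortex. Liver Dbp had a median of 6.12 CPM in AL mice 1 to 16 and of 226 CPM in AL mice 25 to 40, with no overlap, and liver Arntl of 20.5 and 1.05 CPM. These genes moved in the comparisons where members did, and their part in the members' results was not tested.

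Some genes followed the members closely over the 12 groups of tissue, mouse set and diet. Likeness is the root mean square difference between the mean log2 levels of 2 genes, each centred on its own mean, among 18376 genes. It was smallest for Hk1, with Ppp1r9b at 0.160 and Sema3e at 0.163, for Gckr, with Otc at 0.190 and Slc22a30 at 0.199, and for Slc2a1, with Arhgap39 at 0.206 and Rufy2 at 0.214. Slc2a2 had Lect2 at 0.221, Pfkfb1 had 2310001H17Rik at 0.216, Hk2 had Uckl1os at 0.298, Pklr had Cyp7a1 at 0.310, Pfkfb3 had Gsn at 0.315 and Slc2a4 had Dusp13 at 0.321. 

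Of the members 7 overlap a gene on the other strand. Hcn3, over Pklr, and Apex2, over Pfkfb1, have counts of their own that come to 80.9% and 21.97% of the member's count in size, the genes over the other 5 at most 0.576%, and how the counting treated strand is not stated. In cortex of AL mice 1 to 16 Hcn3 had a median of 22.2 CPM while Pklr lay at 0.106 CPM or less. Liver of mice 1 to 16 held Hcn3 at medians of 9.89 CPM on AL and 12.9 CPM on IF, where Pklr fell. In muscle of the same mice Apex2 had medians of 4.94 and 6.29 CPM, beside 35.8 and 57.6 CPM of Pfkfb1.

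Promoters of 8 members, in 14 entries for 300 bases around gene starts, were taken from RefSeq on build GRCm38.p6 to describe the sequence at the members' starts, and Slc2a4 had no entry. They were searched on both strands for CACGTG, TTATGTAA and TGACGTCA, the core letters bound by E-box, D-box and cAMP response factors, chosen after the values were seen. Of 32851 promoters 7.15%, 0.938% and 1.79% hold them. Among the members' entries 1 held a match, the downstream promoter of Pfkfb3 at chr2:11502041-11502340 on the minus strand, with CACGTG in capitals below, and the match is a description only.
Pfkfb3: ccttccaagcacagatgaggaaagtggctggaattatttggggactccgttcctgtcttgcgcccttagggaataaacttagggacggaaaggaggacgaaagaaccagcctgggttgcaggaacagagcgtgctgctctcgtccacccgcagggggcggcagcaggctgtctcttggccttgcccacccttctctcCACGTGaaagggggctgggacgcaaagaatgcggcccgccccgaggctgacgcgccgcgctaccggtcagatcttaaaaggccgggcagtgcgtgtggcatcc

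Tests compare 7 or 8 libraries a group, and each library is 1 mouse, so small changes in genes with a wide spread, such as Pfkfb3 in muscle, can be missed. Transcript levels do not give enzyme activity, glucose uptake or flux.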

How the data were processed

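The deposited table holds raw read counts, which the authors made, by the submitters' notes, with CASAVA and by aligning reads to mm39 with HISAT2, in 96 columns, together with gene lengths in bases. Samples were grouped by tissue, diet and mouse set from the labels, and the column of cortex AL mouse 1 was left out. The members and lists were chosen with earlier results of these data known. Named genes are all members and, of each list and comparison, up to 4 called genes of largest change. Where a symbol had more than 1 row (Aldoa), the row with more counts was used.

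Each tissue and mouse set was fitted with edgeR 4.0.16 in R 4.3.3 (TMM, filterByExpr, robust quasi-likelihood test, Benjamini-Hochberg over all genes tested), and differences between sets or tissues as interaction terms, with the mouse as block across tissues. The SE of a log2 fold change is its size divided by the square root of F. Fits were tested on simulated counts: differences between responses were recovered less completely than diet effects of the same simulated size, so a larger simulated difference was added for that check, and a difference that was not called may still be there. Marker levels use an exact permutation test, two-sided, on log2(CPM + 0.1). Python 3.11.15 and matplotlib 3.10.9 drew the figures. Alternatives were DESeq2 1.42.0 and its size factors, no scaling, other count filters, a minimum of 2-fold, a replicate block, the marker covariate, the left-out library put back, AL mouse 2 and IF mouse 10 left out, and no mouse block. Leaving out each library, the clock genes, the motifs and the members counted in comparisons between tissues were chosen after seeing the data.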

Additional observations from a re-analysis of the deposited data

Results flagged for a closer look

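Of 99 groups of libraries looked at, 15 had 1 library standing apart from the rest of its group, under a rule that flags about 1 in 20 groups of normally spread values. Several flagged groups hold few counts, where that rate need not apply. In liver of mice 1 to 16 these were Hk1 in IF mouse 9 (10.4 CPM), Slc2a4 in IF mouse 9 (1.885 CPM), Hk2 in IF mouse 16 (3.02 CPM), Pfkfb3 in AL mouse 3 (16.9 CPM) and Pfkfb3 in IF mouse 11 (41.3 CPM). In liver of mice 25 to 40 they were Gckr in AL mouse 26 (1010 CPM) and Hk2 in AL mouse 28 (3.92 CPM). In muscle they were Slc2a4 in IF mouse 11 (453 CPM, the only low one), Gckr in AL mouse 26 (0.290 CPM) and Gckr in IF mouse 35 (0.342 CPM). In cortex they were Slc2a2 in IF mouse 9 (0.363 CPM), Gckr in IF mouse 12 (0.517 CPM), Pfkfb1 in IF mouse 10 (1.104 CPM), Pklr in IF mouse 14 (0.145 CPM) and Hk2 in IF mouse 35 (3.54 CPM).

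Diet responses that differed between the mouse sets are flagged, as mice 25 to 40 minus mice 1 to 16 on the log2 scale. They are Pklr (1.73), Gckr (1.17), Hk1 (-0.96) and Pfkfb3 (-1.24) in liver, Slc2a4 (0.42), Hk2 (-0.35) and Pfkfb1 (-0.58) in muscle, and Slc2a1 (-0.46) in cortex. Between tissues of mice 1 to 16 they are Pfkfb3 (-1.47), Hk1 (-0.94) and Pfkfb1 (1.09) as muscle minus liver, Pfkfb3 (-1.44), Slc2a1 (0.89) and Hk1 (-0.71) as cortex minus liver, and Slc2a1 (0.84) as cortex minus muscle.

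The left-out cortex library of AL mouse 1 held 213 CPM of Xist under a male label.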

How the results depend on the processing

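Without counting the fits that leave out 1 library, 460 log2 fold changes kept direction and call, 6 lost a call, 2 gained 1, and 13 turned their sign, none of these called in either fit. Leaving out 1 library kept 637, ended 10 calls, gained 6 and turned 13 signs. With a minimum of 2-fold the called members went from 5 to 3 in liver, from 3 to 0 in muscle and from 1 to 0 in cortex of mice 1 to 16. With the erythrocyte covariate 2 were left in liver, and with the library of AL mouse 1 put back 0 were left for the cortex difference between mouse sets. Other settings moved a member count by 1: liver 4 without scaling, muscle 4 without AL mouse 2 and IF mouse 10, and the liver difference between mouse sets 3 with DESeq2 size factors and 5 at 10 counts or more. Among the 6 members measured in both tissues the counts between tissues did not move without the mouse block. Alas2 alone gave 0.20 in liver and -0.34 in muscle of mice 1 to 16, and -0.0521 and 0.0675 in cortex of mice 1 to 16 and 25 to 40. With AL mouse 1 put back, cortex of mice 1 to 16 had Slc2a4 at 0.44, Hk2 at -0.13, Pfkfb1 at 0.11 and Pfkfb3 at 0.28, none called. The cause of these shifts was not tested.

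Signs turned in liver of mice 1 to 16 for Slc2a4 (-0.0097 with the replicate block, -0.29 with the covariate) and Hk2 (-0.27 and -0.45). In muscle of mice 25 to 40 they turned for Hk2 (0.0083 with DESeq2 size factors, 0.0082 by DESeq2, 0.0078 without a filter, 7.69e-05 with the block) and Pfkfb1 (-0.0061 without scaling). In cortex of mice 1 to 16 they turned for Hk1 (-0.0102 with AL mouse 1) and Pfkfb1 (-0.0576 without AL mouse 2 and IF mouse 10). Pfkfb3 turned between muscle and cortex (-0.11 without the mouse block, -0.0906 with AL mouse 1).

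Leaving out each library in turn was chosen after seeing the data. Lowest and highest log2 fold changes in liver of mice 1 to 16 were -0.41 and -0.22 for Slc2a1, -0.48 and -0.31 for Slc2a2, -0.315 and 0.49 for Slc2a4, -0.46 and 0.23 for Hk2, and -0.48 and -0.22 for Pfkfb1, and 4 to 7 members were called. Slc2a1 was called there without AL mouse 8 or IF mouse 13. In muscle Slc2a1 ran from -0.37 to -0.22, called without AL mouse 8 or IF mouse 10, and Hk2 of mice 25 to 40 from -0.0253 to 0.0467. In cortex of mice 1 to 16 Hk1 ran from -0.0091 to 0.0482, Pfkfb1 from -0.0824 to 0.22 and Pfkfb3 from 0.20 to 0.42, with 1 to 2 members called.

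Over all genes the calls in cortex of mice 1 to 16, 1332, went to 382 with the replicate block, 295 with AL mouse 1, 499 without AL mouse 2 and IF mouse 10 and 2259 by DESeq2. In liver of mice 1 to 16 they went from 7234 to 3995 with the covariate. Without scaling, muscle of mice 1 to 16 had 2549 genes higher and 1073 lower, against 1727 and 1738. The replicate block left every member count as it was, with Slc2a1 at 0.68 in cortex, Gckr at -1.32 in liver and Hk2 at 0.37 in muscle of mice 1 to 16. Same-numbered AL and IF libraries correlated between -0.403 and 0.495, so the numbers are not read as pairs.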
